A study of Homo sapiens with 8 samples.

Results

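Serine and one-carbon metabolism is represented here by 8 genes, the serine synthesis enzymes PHGDH, PSAT1 and PSPH, the serine hydroxymethyltransferases SHMT2 and SHMT1, and the folate enzymes MTHFD2, MTHFD1L and MTHFD1. All 8 had a probe set whose platform annotation gives a single gene symbol, out of 19775 such genes on the array, and each gene was read from its brightest probe set over the 8 arrays. After a filter on dim probe sets, 7 of the 8 were among the 11677 genes tested, and MTHFD1L was not.

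The cells were RL, an established human B lymphoma line labelled t(14,18)+, which places BCL2 under the immunoglobulin heavy chain locus. All had grown for 14 days as multicellular aggregates (MALC) and were then stained for RNA with the dye pyronin Y. The quiescent group is the pyronin Y dull fraction (4 arrays) and the cycling group the pyronin Y bright fraction (4 arrays), and the comparison asks what sets resting cells of the aggregates apart from dividing ones. Both fractions come from the same line and carry the same translocation, and the fractions are defined by the sorting gate alone. Whether the 4 samples of a fraction were grown apart is not labelled, and p-values then cover only the spread seen among them, possibly a technical one.

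Total RNA was hybridised to Affymetrix U133+ 2.0 arrays, and the values are MAS5 intensities that the authors had scaled to the same trimmed mean of 500.1 on every array. A difference is therefore a change against the rest of the array and no amount per cell. Fewer cells of a kind and less RNA per cell cannot be told apart in such bulk samples. Array medians ran from 71.9 to 113.4 and averaged 0.41 higher in log2 on quiescent than on cycling arrays. The number of arrays limits the precision. The 5 B cell markers measured (MS4A1, CD79A, CD79B, PAX5 and CD22) were bright on every array, with lowest intensities of 1660 (PAX5) to 21487 (MS4A1), whereas no T cell, myeloid or fibroblast marker exceeded 279.6. The summed intensity of 4 proliferation genes was 4360 to 5861 in quiescent and 19220 to 24192 in cycling samples. RNA quality was read from the 3′ to 5′ ratio of the ACTB controls, whose log2 was 2.38 to 2.80 on quiescent and 1.80 to 2.26 on cycling arrays (two-sided exact permutation p = 0.0286, the smallest that 70 assignments allow). It differs between the same arrays as every result described here, and its part in them was not tested.

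Cells make serine from the glycolytic intermediate 3-phosphoglycerate in successive steps catalysed by PHGDH, PSAT1 and PSPH. Serine hydroxymethyltransferases then split serine into glycine and a carbon unit that is carried on tetrahydrofolate. Mitochondrial enzymes (SHMT2, MTHFD2, MTHFD1L) oxidise that unit and release it as formate, and the cytosolic MTHFD1 recaptures formate for the synthesis of purines and thymidylate, with SHMT1 as the cytosolic counterpart of SHMT2. Proliferating lymphocytes and many tumour cells are known to use the mitochondrial branch heavily.

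The 250 bases before the annotated start sites of 4 of these genes are given first. They are the genes with the clearest falls (MTHFD1, PSAT1 and MTHFD2) and PHGDH, which did not pass the test. PHGDH cannot stand for an unchanged gene. Its log2 difference (quiescent minus cycling, deposited scaling) of −0.48 was close to the −0.54 of MTHFD2. The windows are therefore described singly, and no contrast between falling and unchanged genes is drawn from them. Sequences are from RefSeq (GRCh38.p14), which held such windows for 6 of the 8 genes. Capitals mark CCAAT boxes (CCAAT, either strand) and the E-box CACGTG.
MTHFD1, chr14:64388103-64388352, plus strand: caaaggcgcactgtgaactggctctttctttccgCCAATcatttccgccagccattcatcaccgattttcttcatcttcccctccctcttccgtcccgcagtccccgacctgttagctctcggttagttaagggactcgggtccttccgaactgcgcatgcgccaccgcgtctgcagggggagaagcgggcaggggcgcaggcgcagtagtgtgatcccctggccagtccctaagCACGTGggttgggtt
PSAT1, chr9:78296875-78297124, plus strand: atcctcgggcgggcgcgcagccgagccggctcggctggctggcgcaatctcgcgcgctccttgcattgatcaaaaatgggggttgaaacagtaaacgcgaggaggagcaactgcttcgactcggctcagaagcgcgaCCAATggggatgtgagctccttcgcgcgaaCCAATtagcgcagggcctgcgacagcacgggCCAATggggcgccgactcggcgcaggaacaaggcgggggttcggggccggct
MTHFD2, chr2:74198365-74198614, plus strand: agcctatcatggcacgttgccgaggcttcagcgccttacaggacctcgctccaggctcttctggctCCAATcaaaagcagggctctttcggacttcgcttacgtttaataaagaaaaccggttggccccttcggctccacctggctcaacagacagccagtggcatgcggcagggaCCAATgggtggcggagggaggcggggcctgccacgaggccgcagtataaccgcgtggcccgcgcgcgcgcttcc
PHGDH, chr1:119711684-119711933, plus strand: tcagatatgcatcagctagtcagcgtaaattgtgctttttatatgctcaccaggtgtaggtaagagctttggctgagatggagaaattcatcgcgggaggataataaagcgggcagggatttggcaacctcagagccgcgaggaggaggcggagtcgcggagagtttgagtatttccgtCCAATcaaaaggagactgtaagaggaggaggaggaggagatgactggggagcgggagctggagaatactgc

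All 4 windows hold a CCAAT box, the site of NF-Y, with 3 in PSAT1, 2 in MTHFD2 and 1 each in PHGDH and MTHFD1. SHMT1 holds 2, and MTHFD1L holds 1 in 3 of its 4 windows, which overlap and share this 1 site. Neither can stand for an unchanged gene, since SHMT1 was poorly measured and MTHFD1L was not tested. Of 35116 windows of the same length, 32.01% hold it. An E-box, bound by MYC with MAX among other factors, begins 15 bases before the MTHFD1 start and lies in none of the other 3 windows shown. It is also in 2 of the 4 MTHFD1L windows, which overlap and share this 1 site, and 6.35% of all windows hold one. The core of the amino acid response element bound by ATF4 (TGATGNAA, either strand, 3.14% of all windows) is absent from the 4 windows shown. It is present in the same 2 MTHFD1L windows, again as 1 shared site. The E2F-like words TTTCGCGC, TTTCCCGC, TTTGGCGC and TTTGCCGC (either strand, 2.79% of all windows) are in none of the windows of these genes. A match of letters describes the window only, and no match says only that these letters are not in it.

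In quiescent cells, the cytosolic folate enzyme MTHFD1 was the member that fell furthest, to 23.4% of its level in cycling cells (95% confidence interval 16.8 to 32.5%). The aminotransferase PSAT1 fell to 43.1%, and the mitochondrial dehydrogenase MTHFD2 and the serine phosphatase PSPH fell to 68.8% and 69.2%. PHGDH, SHMT2 and SHMT1 did not pass the test, and no tested member was called higher. Of the 7 members tested 4 were called lower, against 15.4% of all 11677 genes (limma, Benjamini-Hochberg adjusted p under 0.05). The members were chosen with earlier results of these data known, so that this count is not independent of the data. In the same 4 members every quiescent sample lay below every cycling sample, as in 15.4% of all genes tested. The 7 tested members had log2 differences (quiescent minus cycling) of −2.10 to 0.26, beside a median of 0.08 over all genes tested, so that members of the same pathway moved by quite different amounts.

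**Figure D1:**
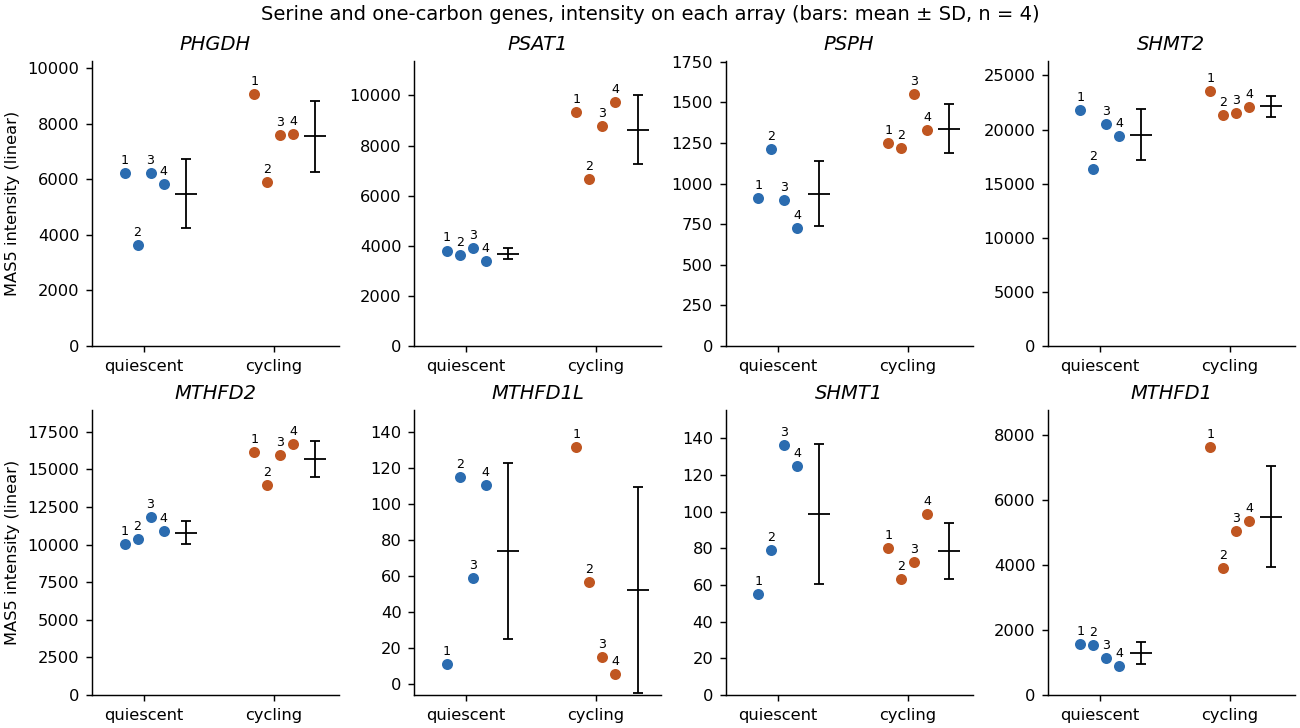
MAS5 intensity (linear vertical axis) of the 8 genes on each array, quiescent samples in blue and cycling samples in orange, with sample numbers beside the points and bars for the mean ± SD (n = 4). The quiescent points of PSAT1, MTHFD2 and MTHFD1 lie well below the cycling points, while MTHFD1L and SHMT1 stay under an intensity of 140.

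Serine synthesis began with PHGDH, the dehydrogenase that commits 3-phosphoglycerate to the pathway. It measured 6222, 3636, 6231 and 5824 in quiescent samples 1 to 4, against 9060, 5904, 7616 and 7627 in cycling samples 1 to 4. Sample 2 was the lowest in both groups, and the groups overlapped, since 2 quiescent samples lay above cycling sample 2. The log2 difference was −0.48 (SE 0.18, limma adjusted p = 0.0662), which did not pass. Without cycling sample 2 it was −0.59 (limma adjusted p = 0.0301) and without quiescent sample 1 −0.55 (0.0475), and it then passed, whereas it was −0.29 (0.151) without quiescent sample 2 and −0.39 (0.156) without cycling sample 1. Its interval of −0.87 to −0.09 leaves the size poorly known.

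PSAT1, which transfers an amino group from glutamate in the next step, was called lower. Its intensity was 3808, 3635, 3906 and 3377 in quiescent samples, against 9340, 6645, 8762 and 9757 in cycling samples. The quiescent values lay within a narrow band, and even the lowest cycling sample was above all of them. The log2 difference was −1.22 (SE 0.13, limma adjusted p = 4.99e-05), and 3.10% of all genes tested had a lower value. Its other probe set, at 1398 to 2144 in quiescent and 3106 to 4773 in cycling samples, gave the same −1.22.

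PSPH removes the phosphate in the last step and releases serine. It measured 910, 1210, 901 and 725 in quiescent samples, against 1248, 1219, 1553 and 1330 in cycling samples. The groups did not overlap, but quiescent sample 2 and cycling sample 2 were nearly equal. The log2 difference of −0.53 (SE 0.17, limma adjusted p = 0.0321) was no longer called without quiescent sample 3 or 4 (adjusted p = 0.0744 and 0.101) or without cycling sample 3 or 4 (0.102 and 0.0711). Its second probe set, equally bright, gave −0.38, in the same direction but not called (limma adjusted p = 0.0991 in the fit of every probe set). Another, dim one gave 0.41 (0.367), so that the call of PSPH rests on 1 probe set.

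SHMT2, the mitochondrial serine hydroxymethyltransferase, which supplies most of the carbon units in many proliferating cells, had 21834, 16372, 20535 and 19383 in quiescent samples, against 23573, 21355, 21542 and 22078 in cycling samples. Quiescent sample 1 lay above cycling samples 2 and 3, so that the groups overlapped, and the log2 difference of −0.19 (SE 0.10, limma adjusted p = 0.181) did not pass. The 3 SHMT2 probe sets differed in size of change. The intermediate one, at 4210 to 7258 in quiescent and 5772 to 8433 in cycling samples, gave −0.24 (limma adjusted p = 0.32 in the fit of every probe set). The dimmest, at 674 to 1245 in quiescent and 1474 to 1940 in cycling samples, gave −0.88 (0.00362) with no overlap between groups. The brighter the probe set, the smaller was the measured difference, and why was not tested.

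SHMT1 was at the edge of measurement. Its brighter single-symbol probe set read 55.1, 79.1, 136.5 and 125.0 in quiescent samples, against 80.1, 63.3, 72.3 and 98.8 in cycling samples. The groups overlapped widely, with a mean just above the filter intensity of 83.3 on the log2 scale. The log2 difference was 0.26 (SE 0.40, limma adjusted p = 0.66) and turned to −0.15 with arrays centred on their medians and −0.14 after quantile normalization, never passing. Its interval of −0.60 to 1.12 is too wide to say how SHMT1 differed. Another 2 probe sets list SHMT1 beside a second symbol and were not used.

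**Figure D2:**
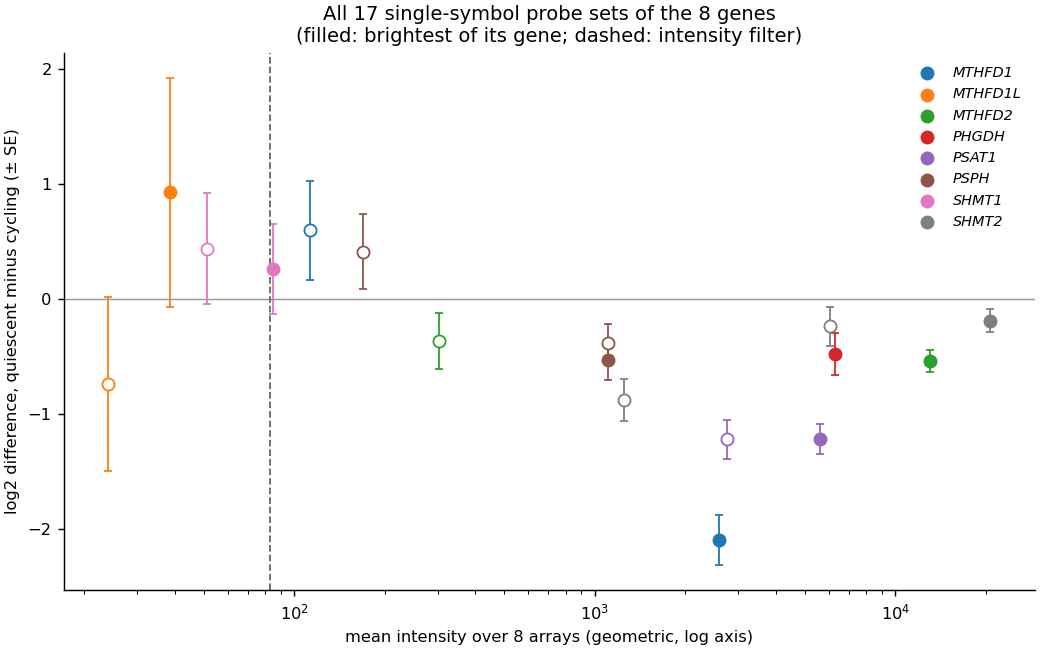
Log2 difference, quiescent minus cycling (vertical axis, ± SE), against the geometric mean intensity over 8 arrays (horizontal log axis) for all 17 single-symbol probe sets of the 8 genes. Filled points are the brightest probe set of each gene and the dashed line is the intensity filter of 83.3. Probe sets under 200 lie between −0.74 and 0.93 with wide errors, all above 0 except the dimmer MTHFD1L one. The 3 SHMT2 points climb towards 0 as intensity rises.

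Of the folate enzymes, MTHFD2, a mitochondrial dehydrogenase and cyclohydrolase that is low in most resting adult tissue, remained bright in both fractions. It read 10074, 10386, 11820 and 10912 in quiescent samples, against 16147, 13988, 15955 and 16704 in cycling samples. Every quiescent sample lay below every cycling sample. The log2 difference was −0.54 (SE 0.10, limma adjusted p = 0.00147). A dim second probe set, at 202 to 338 in quiescent and 265 to 444 in cycling samples, gave −0.36 and did not pass (0.277).

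MTHFD1, the cytosolic enzyme that joins formate to tetrahydrofolate and reduces the product, changed far more. It read 1585, 1542, 1124 and 888 in quiescent samples, against 7643, 3927, 5061 and 5356 in cycling samples. The highest quiescent sample was below the lowest cycling sample, number 2, by a wide margin. The log2 difference was −2.10 (SE 0.22, limma adjusted p = 3.92e-05), which ranked 93 from the lowest among the 11677 genes tested. Its second probe set stayed between 40.5 and 194.7 on all arrays, with 0.60 (0.322), and did not show the fall.

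MTHFD1L, which makes formate in mitochondria, could not be judged from its single-symbol probe sets. The brighter read 10.8, 114.6, 58.6 and 110.2 in quiescent samples, against 131.2, 56.1, 14.9 and 5.5 in cycling samples. These dim values follow no group, and the other probe set reached at most 55.1. Another 2 probe sets list MTHFD1L with further symbols and were not used.

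**Figure D3:**
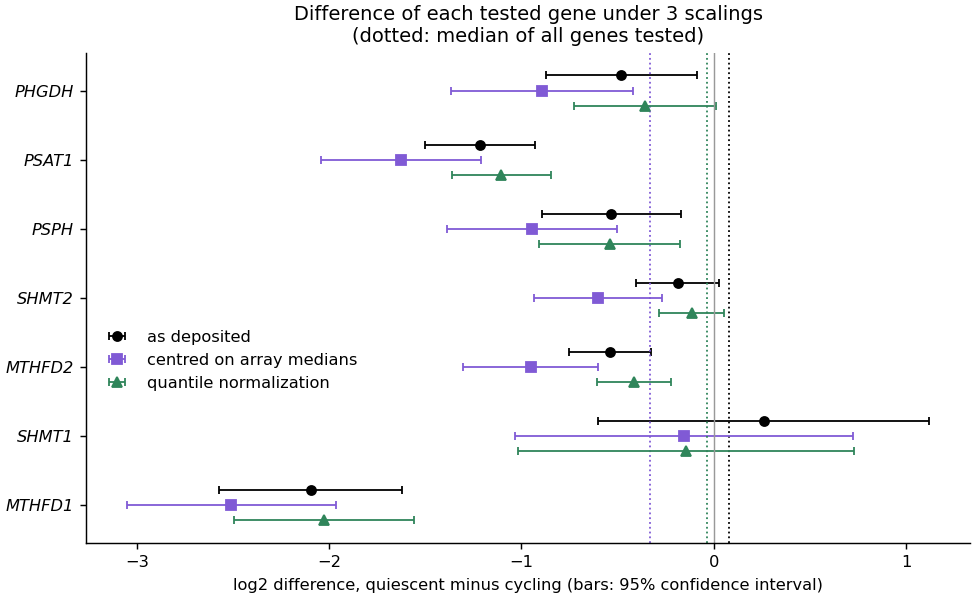
Log2 difference, quiescent minus cycling (horizontal axis), with its 95% confidence interval for the 7 genes tested, as deposited (black), centred on array medians (purple) and after quantile normalization (green). Dotted lines are the median of all genes tested under each scaling. MTHFD1 and PSAT1 stand left of all 3 medians, while the intervals of SHMT1 span all of them.

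Centring shifts all genes of an array by the same amount, whereas quantile normalization moves them by unequal amounts. The median log2 difference of all genes tested was 0.08 as deposited, −0.33 with arrays centred on their medians and −0.04 after quantile normalization. Relative to the deposited median, MTHFD1 was lower by −2.18, PSAT1 by −1.30, MTHFD2 by −0.62, PSPH by −0.61, PHGDH by −0.56 and SHMT2 by −0.27, and SHMT1 differed by 0.18. With centred arrays 32.5% of all genes were called lower (2.8% higher) and 6 of the 7 members were, with PHGDH (−0.89, limma adjusted p = 0.00499) and SHMT2 (−0.60, 0.00656) added. After quantile normalization, with 16.4% of genes called lower, the same 4 members as in the deposited scaling passed.

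A constant factor per array cancels in a difference between genes of 1 array, though quantile normalization does not, and the difference shows unequal change and not the level of either gene. MTHFD2 minus MTHFD1 was 2.67, 2.75, 3.39 and 3.62 in log2 on quiescent arrays, against 1.08, 1.83, 1.66 and 1.64 on cycling arrays. All quiescent values exceeded all cycling values. The difference was 1.56, so that the MTHFD2 to MTHFD1 signal ratio was 2.94 times as high on quiescent arrays. Its two-sided exact permutation p was 0.0286, the smallest possible, and 0.0857 adjusted over 3 contrasts, which does not pass. At that smallest p a contrast can pass only if another of the 3 reaches it too. The others involve the dim SHMT1 and MTHFD1L, so that not passing says little about this contrast. SHMT2 minus SHMT1 averaged 7.71 ± 0.65 on quiescent and 8.16 ± 0.25 on cycling arrays (SD, n = 4 each), with a difference of −0.45 (exact permutation p = 0.229, adjusted 0.229), which turned to 0.029 after quantile normalization (exact p = 0.943). MTHFD1L minus MTHFD1 differed by 3.02 (exact permutation p = 0.0857, adjusted 0.129), with MTHFD1L below the intensity filter, so that its size has no firm meaning.

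**Figure D4:**
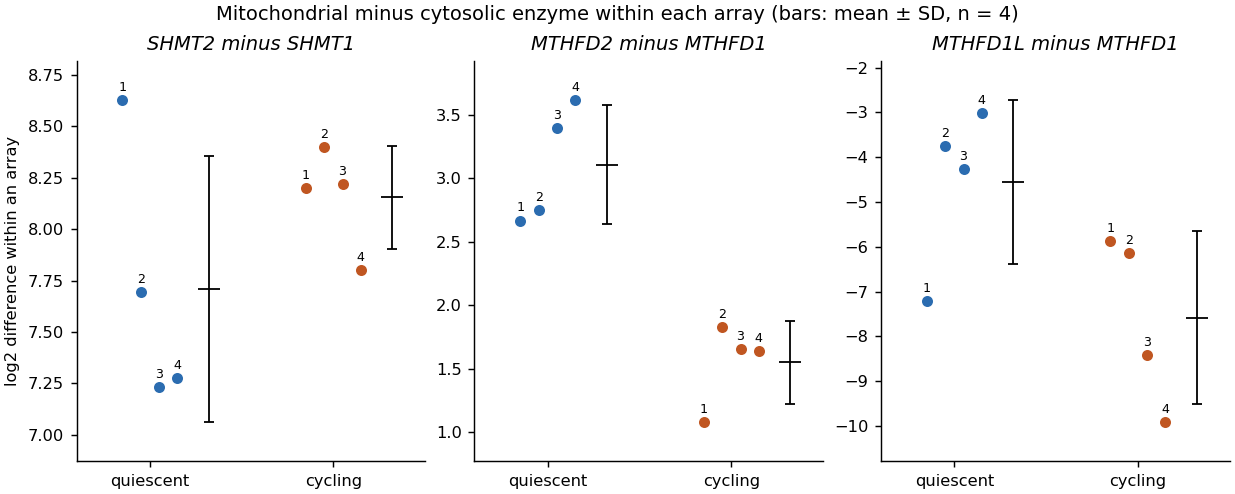
Log2 difference within each array (vertical axis, a separate range in each panel) between a mitochondrial and a cytosolic enzyme, quiescent in blue and cycling in orange, with sample numbers and bars for the mean ± SD (n = 4). The groups separate for MTHFD2 minus MTHFD1 and overlap in the other 2 panels, which involve the dim SHMT1 and MTHFD1L.

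Among cycling arrays, sample 2 was the lowest for all 7 tested members. The same sample was the lowest for 66.5% of the 1802 genes called lower in quiescent cells and for 25.5% of all genes tested, so that this order is shared with most genes that fell. Without cycling sample 2, 5 members were called lower in place of 4, with PHGDH added as described above.

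The profile over the 8 arrays that lay closest to each member was found by the root mean square distance between log2 values after each gene was set to mean 0. For MTHFD1 it was GCSH, the hydrogen carrier of glycine cleavage (distance 0.12, beside a median of 1.19 to all genes), followed by the spindle checkpoint gene MAD2L1 (0.17). For PSAT1 the nearest were CDC123, an assembly factor of translation initiation factor eIF2, and the mitochondrial ribosomal gene MRPL27 (0.08 each, median 0.74). MTHFD2 was nearest to ALG5 of N-glycan synthesis and to the methyl-CpG binder MBD2 (0.05 and 0.06, median 0.46). PHGDH was nearest to HINT2 and DNPH1 (0.05 and 0.07), PSPH to HNRNPH1 and NUP85 (0.08 and 0.09), SHMT2 to ERMARD and CERS5 (0.04 and 0.05), and SHMT1 to NOTCH4 and CFAP100 (0.16 and 0.18). Between members, MTHFD2 and SHMT2 were closest (0.22), whereas MTHFD1 lay at least 0.52 from every other member tested. These distances include the group difference, so that genes with a similar change lie close. The nearest of all genes tested is also close by selection, and shared regulation was not tested.

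The rest of the pathway was read from lists of 67 further genes, also chosen with earlier results of these data known. Of them 52 were tested. Of these 14 were lower and 4 higher in quiescent cells, with a median log2 difference of −0.28 beside 0.08 for all genes tested, and 15.4% of all genes were called lower and 12.2% higher. With centred arrays 27 were lower and 1 higher, beside 32.5% and 2.8% of all genes tested.

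In folate uptake, retention and reduction, 2 of 7 were lower and 0 higher (median −0.56). GGH, which trims glutamates from folate, averaged 1003 ± 117 in quiescent and 3827 ± 901 in cycling samples (SD, n = 4 each), lower by −1.91 in log2 (limma adjusted p = 1.19e-05). SLC25A32, the mitochondrial folate carrier, fell by 0.56 (0.0291), a call that was lost without quiescent sample 1 or 4 or cycling sample 2 or 4. Of other enzymes that use folate carbon units, 3 of 6 were lower and 0 higher (median −0.95). TYMS, which makes thymidylate, averaged 616 ± 269 in quiescent and 5972 ± 1746 in cycling samples, and the purine enzymes ATIC and GART had log2 differences of −1.44 and −1.24 and were both called. Of 7 further GART probe sets above the filter, 3 were called lower and 3 higher, so that its direction depends on the probe set.

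In glycine and serine handling, 3 of 5 were lower and 0 higher (median −0.87). GCSH averaged 436 ± 128 in quiescent and 1593 ± 475 in cycling samples, a log2 difference of −1.88 (limma adjusted p = 1.78e-04), and its second probe set was also called lower. DLD, a dehydrogenase that glycine cleavage shares with other mitochondrial complexes, fell by 0.89. The serine racemase SRR fell by 0.87 (limma adjusted p = 0.0277), which was lost without quiescent sample 2 or 4 or cycling sample 1, 3 or 4, and with the mean of its probe sets (0.07, 0.868). AMT, the aminomethyltransferase of glycine cleavage, differed by 0.04 (limma adjusted p = 0.87).

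**Figure D5:**
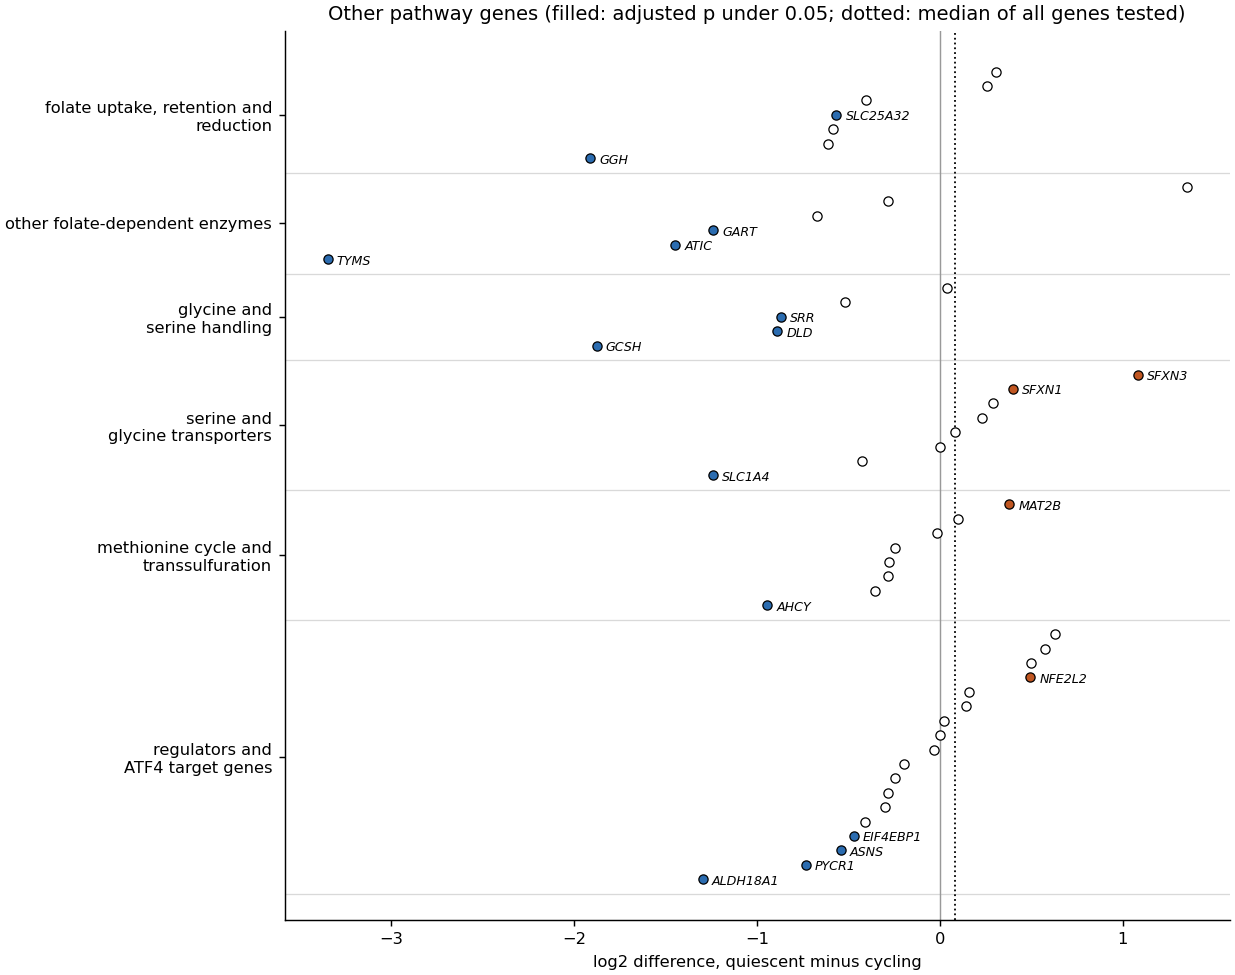
Log2 difference, quiescent minus cycling (horizontal axis), of the 52 tested genes of the other pathway lists, grouped by role and sorted within each list. Filled blue points were called lower and filled orange points higher, open points did not pass, and the dotted line is the median of all genes tested. With the deposited scaling, 14 of the 52 points are filled blue and 4 filled orange.

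Of the transporters 1 of 8 was lower and 2 were higher (median 0.16), beside 15.4% and 12.2% of all genes tested. With centred arrays 2 were lower and 1 higher, beside 32.5% and 2.8% of all genes tested. SLC1A4, a plasma membrane carrier of serine and other neutral amino acids, fell by 1.24 on the log2 scale (limma adjusted p = 2.2e-04). SFXN3, which like SFXN1 can carry serine into mitochondria, rose to 482 ± 72.8 in quiescent against 227 ± 28.3 in cycling samples (log2 difference 1.08, limma adjusted p = 0.00148), and was higher under all 3 scalings. It was below the filter, and so not tested, with the mean of its probe sets or a filter at the 75th percentile. SFXN1 rose by 0.40 as deposited (limma adjusted p = 0.0411), with −0.01 in centred arrays, and lost the call without any 1 of 6 samples, all but quiescent sample 1 and cycling sample 4.

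In the methionine cycle and transsulfuration, 1 of 8 was lower and 1 higher (median −0.26), beside 15.4% and 12.2% of all genes tested. With centred arrays 4 were lower and 0 higher, beside 32.5% and 2.8% of all genes tested. AHCY, which clears S-adenosylhomocysteine, fell by 0.94 (limma adjusted p = 0.00641). MAT2B, the regulatory partner of the methionine adenosyltransferase MAT2A, rose by 0.38 as deposited (limma adjusted p = 0.037), with −0.03 in centred arrays, and lost the call without any 1 of 6 samples, all but quiescent sample 1 and cycling sample 3. Methionine synthase, MTR, averaged 2451 ± 135 in quiescent and 2291 ± 184 in cycling samples (log2 difference 0.10, adjusted p = 0.567).

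The transcription factor ATF4 activates PHGDH, PSAT1, PSPH, SHMT2 and MTHFD2 when amino acids run short. ATF4 transcript averaged 13267 ± 730 in quiescent and 15207 ± 1008 in cycling samples, which is −0.20 in log2 and did not pass (SE 0.09, limma adjusted p = 0.133). Of 18 regulators and ATF4 target genes, 4 were lower and 1 higher (median −0.11), beside 15.4% and 12.2% of all genes tested. With centred arrays 8 were lower and 0 higher, beside 32.5% and 2.8% of all genes tested. The proline synthesis enzymes ALDH18A1 and PYCR1 fell by 1.30 and 0.73 and the asparagine synthetase ASNS by 0.54, while CHAC1, TRIB3 and DDIT3 were not called, with log2 differences of 0.50, −0.001 and −0.25. With the mean of its probe sets ASNS was not called (0.13, limma adjusted p = 0.788). EIF4EBP1, a repressor of cap-dependent translation, fell by 0.47 (limma adjusted p = 0.0473), a call that was lost without quiescent sample 1, 2 or 3 or cycling sample 1, 3 or 4, and PYCR1 lost its call without quiescent sample 2 or 3 or cycling sample 1 or 4. NFE2L2, which encodes the antioxidant regulator NRF2, rose by 0.49 as deposited (0.0325), with 0.08 in centred arrays, and was not called without quiescent sample 2, 3 or 4 or cycling sample 1 or 3, or with the mean of its probe sets (0.67, 0.12). MYC averaged 3065 ± 936 in quiescent and 4172 ± 1691 in cycling samples, with a log2 difference of −0.41 that missed the threshold (limma adjusted p = 0.345).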

How the data were processed

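RNA of 4 quiescent and 4 cycling samples was measured on 1 array each, with groups and sample numbers from the titles. The deposited table holds MAS5 intensities, not logged (per the submitters' processing notes; version not given in the sources used here), scaled by the authors, from the values, to equal means after trimming 2% from each end. Present and absent calls were not used here. Log2 was taken after raising any intensity below 1 to 1. Genes were named from single-symbol annotation of 41091 probe sets, the brightest probe set per gene was kept, and genes with a mean log2 value above that of the middle non-control probe set (intensity 83.3) were tested. The deposited scaling was kept, because centring arrays on the median of all probe sets, many of them dim, moved the median difference of the genes tested to −0.33. The groups were compared in limma 3.58.1 (lmFit, then eBayes with trend and robust fitting) under R 4.3.3, with Benjamini-Hochberg adjustment over 11677 genes and a threshold of 0.05. Other probe sets were tested in a fit over all single-symbol probe sets above the filter.

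In simulated data for these 11677 genes, of which 200 were changed, the test found 87% of the 4-fold changes and 55% of the 2-fold ones, with 7 false calls. Many more genes were called in the data (1802 lower and 1430 higher), so that these rates need not hold there. Promoter windows were searched with Python 3.11.15. The members and lists were chosen with earlier results of these data known. Named genes are all members, up to 4 called genes of each list in each direction, a few fixed genes, and the 2 nearest profiles per member. CHAC1, TRIB3, DDIT3 and AMT were added after their values were seen. Of the 67 listed genes 6 were not analysed here. Same-numbered samples deviated together with correlations of 0.04 to 0.34, which were not all over 0.1, so the numbers were not taken as pairs.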

Additional observations from a re-analysis of the deposited data

Results flagged for a closer look

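Quiescent sample 2 stood apart from the other quiescent samples for PHGDH, with an intensity of 3636 against 5824 to 6231. Its gap to the nearest sample was 0.875 of the range of the 4 log2 values, above the critical value of Dixon's test. This was 1 of 16 groups of 4 samples examined, and chance flags about 1 group in 20. Without that sample the log2 difference of PHGDH was −0.29 (limma adjusted p = 0.151).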

How the results depend on the processing

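MTHFD1, PSAT1 and MTHFD2 were called lower in all 16 alternatives run (other scalings, filters, an added constant of 32, the mean over probe sets, the variance model, the replicate block and each sample left out), with log2 differences of −2.51 to −0.75, −1.63 to −1.10 and −0.95 to −0.42. Leaving out a sample gave 3 to 5 members called lower, 1419 to 1900 genes lower and 945 (without quiescent sample 3) to 1697 higher, and 10 to 13 pathway genes lower and 1 to 6 higher. With centred arrays 3795 genes were lower and 327 higher, and 27 pathway genes lower and 1 higher. Pathway genes called higher were also 1 without the filter and 1 without trend and robust fitting. PSPH was lost without the filter (limma adjusted p = 0.0541), without trend and robust fitting (0.0543) and with the mean of probe sets (−0.17, 0.465), where SHMT2 passed (−0.43, 0.044). Dim probe sets reversed MTHFD1 (0.60) and PSPH (0.41), neither called. The contrast of MTHFD2 and MTHFD1 was 1.39 to 1.70 without single samples and 0.30 with the mean of probe sets (exact permutation p = 0.343), which gives the dim MTHFD1 probe set equal weight. That of MTHFD1L and MTHFD1 was 2.49 with 32 added (exact p = 0.0286) and 2.24 to 3.91 without single samples, and that of SHMT2 and SHMT1 −0.75 to −0.29, but 0.029 after quantile normalization (exact p = 0.943), where that of MTHFD1L and MTHFD1 was 2.54, and −0.78 with the mean of probe sets. SHMT1, never called, turned to −0.15 with centred arrays and −0.14 after quantile normalization, and the dimmer MTHFD1L probe set gave −0.74. With sample number as a replicate block 2232 genes were lower and 2004 higher, 10 pathway genes were higher, and PHGDH was added to the members called lower (limma adjusted p = 0.00233). MYC was then called lower (0.021) and CHAC1 higher (0.0445). Of the 8 samples 5 correlated best with their own number in the other group. Dim probe sets and the number of arrays limit what could be seen for SHMT1 and MTHFD1L.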
